A study of Homo sapiens with 24 samples.

Results

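The 40 genes described here encode proteins that copy DNA or divide the cell. They were picked by symbol: 23 act around the entry into and passage through S phase (called G1/S genes below) and 17 act in G2 and mitosis (called G2/M genes). All 40 were found by symbol among the 57820 genes of the deposited table, and all 40 passed the filter on low reads that left 19835 genes for testing. The series followed HUES6, a human embryonic stem cell line grown in FTDA medium, through a short time course of mesoderm induction with the growth factor BMP4 at 1.5 ng/ml and CHIR, a GSK3 inhibitor that activates WNT signalling, at 1.5 µM. The 8 groups were cells labelled WT or RBPMS KO (KO below), a knockout of the gene for an RNA-binding protein, each at 0 h (labelled control) and after 3, 6 and 48 h of BMP4 and CHIR. Each group had 3 stranded mRNA libraries, 24 in all, named 1 to 3 in the labels. The labels do not say how the KO line was made, whether it is 1 clone, or whether the 3 libraries of a group are separate cultures. A p-value therefore measures the spread between these libraries, which may be technical. RBPMS mRNA does not check the genotype labels: the KO minus WT difference was 0.25 (adjusted p = 0.0391) at 0 h, -0.14 (adjusted p = 0.405) at 3 h, -0.079 (adjusted p = 0.858) at 6 h and -0.16 (adjusted p = 0.259) at 48 h on the log2 scale, so the transcript was still present in the libraries labelled KO.

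A cell that will copy its genome first loads the MCM helicase at replication origins with the help of CDC6 and CDT1, and then fires those origins when CDC45 and the GINS complex join the helicase. Cyclin D and cyclin E kinases inactivate RB proteins and so release E2F factors, which activate the genes for replication and nucleotide supply. G2/M genes peak later in the cycle, repressed by the DREAM complex in resting and early cycling cells and activated by MYBL2 and FOXM1 through a promoter element named CHR. Another element common in promoters of G2/M genes is named CCAAT. Human embryonic stem cells are known for a short G1 phase and a high share of cells in S phase.

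The upstream sequences of the genes come first and were searched for the letters of E2F sites and of the CHR and CCAAT elements. RefSeq promoters (GRCh38.p14) were found for 34 of the 40 members in 47 windows, some genes having several starts, and the 250 bases before each start were searched on both strands. Letters of an E2F site (TTTCCCGC, TTTGGCGC, TTTCGCGC or TTTGCCGC) stood in 10 of 26 G1/S windows (38.5%), in 1 of 21 G2/M windows (4.76%) and in 979 of 35116 windows of all genes (2.79%). Letters of a CHR element (TTTGAA) stood in 1 of 26 G1/S windows (3.85%), in 10 of 21 G2/M windows (47.6%) and in 13.3% of all windows. The letters CCAAT stood in 19 of 26 G1/S windows (73.1%), in 17 of 21 G2/M windows (81.0%) and in 32.0% of all windows. A match describes letters only and is not evidence of a bound site. Windows of 1 gene can overlap, and 2 matches on opposite strands can overlap. The promoters of 5 G1/S genes with E2F letters and of 3 G2/M genes with CHR letters follow, each as 250 bases up to the base before the RefSeq start, 5′ to 3′ on the gene's strand, with matches in capitals.
CDC25A (chr3:48188418-48188667, minus strand): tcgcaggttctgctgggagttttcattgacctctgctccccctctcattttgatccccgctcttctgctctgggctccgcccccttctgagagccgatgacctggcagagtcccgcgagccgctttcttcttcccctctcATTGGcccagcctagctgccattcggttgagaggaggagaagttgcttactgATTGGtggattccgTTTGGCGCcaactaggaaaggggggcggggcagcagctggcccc
E2F1 (chr20:33686386-33686635, minus strand): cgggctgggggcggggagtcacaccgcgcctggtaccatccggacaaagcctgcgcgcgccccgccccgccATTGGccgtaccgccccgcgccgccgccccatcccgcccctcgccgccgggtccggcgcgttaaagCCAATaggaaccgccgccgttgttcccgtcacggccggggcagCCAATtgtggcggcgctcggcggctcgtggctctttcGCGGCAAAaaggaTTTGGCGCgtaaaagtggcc
E2F2 (chr1:23531234-23531483, minus strand): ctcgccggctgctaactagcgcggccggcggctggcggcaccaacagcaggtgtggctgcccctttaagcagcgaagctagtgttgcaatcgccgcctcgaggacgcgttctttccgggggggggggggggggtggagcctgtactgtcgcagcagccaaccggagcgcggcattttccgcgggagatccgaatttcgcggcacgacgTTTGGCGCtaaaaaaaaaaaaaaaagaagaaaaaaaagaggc
PCNA (chr20:5126623-5126872, minus strand): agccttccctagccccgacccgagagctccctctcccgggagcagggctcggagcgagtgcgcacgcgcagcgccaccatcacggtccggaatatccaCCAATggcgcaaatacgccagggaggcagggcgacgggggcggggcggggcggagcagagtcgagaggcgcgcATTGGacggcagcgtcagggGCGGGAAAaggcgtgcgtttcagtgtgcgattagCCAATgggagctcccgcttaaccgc
MCM6 (chr2:135876444-135876693, minus strand): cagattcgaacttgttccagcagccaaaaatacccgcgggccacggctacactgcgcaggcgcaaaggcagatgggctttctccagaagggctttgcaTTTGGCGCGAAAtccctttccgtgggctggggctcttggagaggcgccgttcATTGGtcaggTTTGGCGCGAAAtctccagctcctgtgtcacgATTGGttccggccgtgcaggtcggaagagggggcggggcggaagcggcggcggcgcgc
BUB1B (chr15:40160819-40161068, plus strand): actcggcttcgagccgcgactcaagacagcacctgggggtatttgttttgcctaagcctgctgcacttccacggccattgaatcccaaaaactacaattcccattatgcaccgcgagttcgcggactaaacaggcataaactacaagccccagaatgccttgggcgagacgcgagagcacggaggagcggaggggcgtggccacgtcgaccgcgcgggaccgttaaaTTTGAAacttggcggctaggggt
CDC20 (chr1:43358731-43358980, plus strand): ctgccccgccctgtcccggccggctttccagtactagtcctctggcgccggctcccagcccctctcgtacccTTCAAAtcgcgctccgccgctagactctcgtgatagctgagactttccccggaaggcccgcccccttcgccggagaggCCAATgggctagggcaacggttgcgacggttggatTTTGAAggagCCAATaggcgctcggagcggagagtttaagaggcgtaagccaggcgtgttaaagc
TOP2A (chr17:40417897-40418146, minus strand): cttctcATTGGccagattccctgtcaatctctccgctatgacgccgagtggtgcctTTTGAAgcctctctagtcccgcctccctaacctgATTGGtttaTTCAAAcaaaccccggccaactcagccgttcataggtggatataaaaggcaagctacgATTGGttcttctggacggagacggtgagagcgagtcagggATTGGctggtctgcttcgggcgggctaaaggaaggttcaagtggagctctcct
In MCM6 the letters TTTGGCGCGAAA occur at 2 places, and each place holds 2 overlapping matches, TTTGGCGC on the strand shown and TTTCGCGC on the other strand. BUB1B has its CHR letters within 25 bases of the start and no CCAAT, whereas TOP2A has 4 CCAAT matches and CDC20 has 2. RRM2, the member with the largest rise in KO below, held no E2F or CHR letters in either of its windows, and had 3 CCAAT in the window nearer the coding region. That says only that these letters are not in those windows.

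The libraries held 29896358 to 50451908 reads, and the least abundant member value, that of E2F2 at KO 0 h, still rested on 126 reads. In all, 3 libraries stood apart from their 2 mates across all genes: WT 0 h library 1 (r from 0.959 to 0.965 with its mates, which had 0.995 with each other), KO 3 h library 3 (0.980 to 0.981) and WT 48 h library 3 (0.986 to 0.987). WT 0 h library 1 was nearest to KO 0 h library 3, with r = 0.980, and marker sums set it apart from its mates as well. Fibroblast and stroma markers summed to 879 CPM against 497 and 505 in its mates, and streak and mesoderm markers to 6.12 against 2.97 and 3.29. Neuroectoderm markers summed to 426 CPM against 613 and 609.9, and endoderm markers to 1.19 against 1.67 and 1.60. Whether this library was exchanged or mixed with another was not tested, and KO against WT values at 0 h, WT changes from 0 h and differences between those changes all use it. Of the 7 fibroblast and stroma markers, DCN, LUM and COL3A1, which define fibroblasts, were at or near 0 in every group, and THY1, COL1A1 and COL1A2 made up most of the sum. Mitochondrial transcripts took 6.67% to 7.36% of reads at 0 h, except 4.64% in WT 0 h library 1, and 2.46% to 5.24% at later hours. Stem cell markers (POU5F1, NANOG, SOX2, LIN28A, DPPA4, TDGF1, ZFP42 and L1TD1) were present in all libraries, with a summed level of 5431 to 9881 CPM. The sum hides single markers: mean ZFP42 at 0, 3, 6 and 48 h was 212, 24.3, 30.5 and 194 CPM in KO. In WT it was 203, 125, 148 and 102. Mean COL1A2 was 121, 4.62, 3.27 and 220 CPM in KO and 79.9, 38.1, 26.8 and 196 in WT. The part of these shifts at 3 h and 6 h in the changes of the members was not tested. Primitive streak and mesoderm markers summed to 2.97 to 6.12 CPM at 0 h, 88.9 to 120.4 at 3 h, 13.8 to 16.2 at 6 h and 1027 to 1860 at 48 h.

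The G1/S and G2/M genes moved apart within 3 h of induction. The series holds no group kept without BMP4 and CHIR to 3, 6 or 48 h. Effects of time and handling therefore cannot be told apart from those of the induction. In WT, 20 of 23 G1/S genes were higher at 3 h than at 0 h and 0 lower, against 28.6% higher and 27.1% lower, 55.7% in all, of all genes tested (limma, adjusted p under 0.05). Of the 17 G2/M genes, 3 were higher and 10 lower. In KO at 3 h, 20 G1/S genes were higher and 0 lower, while 4 G2/M genes were higher and 9 lower, against a background of 33.1% and 32.6% (65.7% in all). At 6 h, 19 G1/S genes were higher in WT and 0 lower, with 2 G2/M genes higher and 8 lower, against 31.1% and 31% of all genes (62.1% in all). At 6 h in KO, 20 G1/S genes were higher and 1 lower, and 5 G2/M genes were higher and 8 lower, against 33.4% and 35.1% (68.5% in all). For the counts of 0, no G1/S gene was lower at an unadjusted p under 0.05 either, and edgeR and DESeq2 also called 0. WT and KO share no library, and 18 G1/S genes were called higher in both at 3 h and also 18 at 6 h. For G2/M genes 9 were called lower in both at 3 h and 7 at 6 h. The share of all genes called in the same direction in both genotypes was not computed, so these counts have no background. The comparisons of 3 h and of 6 h against 0 h share the 0 h libraries of their genotype, so they are not independent of each other. Groups whose libraries do not overlap were common among all genes: 57.9% of them at 3 h and 63.2% at 6 h against 0 h in WT, 67.2% and 78% in KO.

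The median log2 change of the G1/S genes was 0.64 at 3 h and 1.10 at 6 h in WT and 1.08 and 1.34 in KO. Medians of the G2/M genes were -0.32 and -0.25 in WT and -0.28 and -0.15 in KO, and those of all genes lay between -0.02 and 0.01. Summed over the 23 genes, G1/S transcripts took 2308 to 3079 CPM in the 0 h libraries, 4570 to 5526 at 3 h, 5075 to 5348 at 6 h and 2914 to 3142 at 48 h. For the 17 G2/M genes the sums were 3430 to 4004 at 0 h, 2485 to 2882 at 3 h, 2549 to 2728 at 6 h and 3789 to 4464 at 48 h. Neither sum overlapped between the 0 h and the 3 h or 6 h libraries, in either genotype. In bulk RNA a change in the share of cells in a phase and a change in RNA per cell cannot be told apart. The mitochondrial share also fell after 0 h. At 48 h it was 2.46% to 3.25% in WT and 2.87% to 2.92% in KO, while both sums were back near their 0 h levels. Its part in the changes of the sums was not tested. Without WT 0 h library 1 the WT counts were 17 G1/S genes higher and 1 lower and 2 G2/M genes higher and 12 lower at 3 h, and 19 and 1, and 3 and 10, at 6 h.

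**Figure D1:**
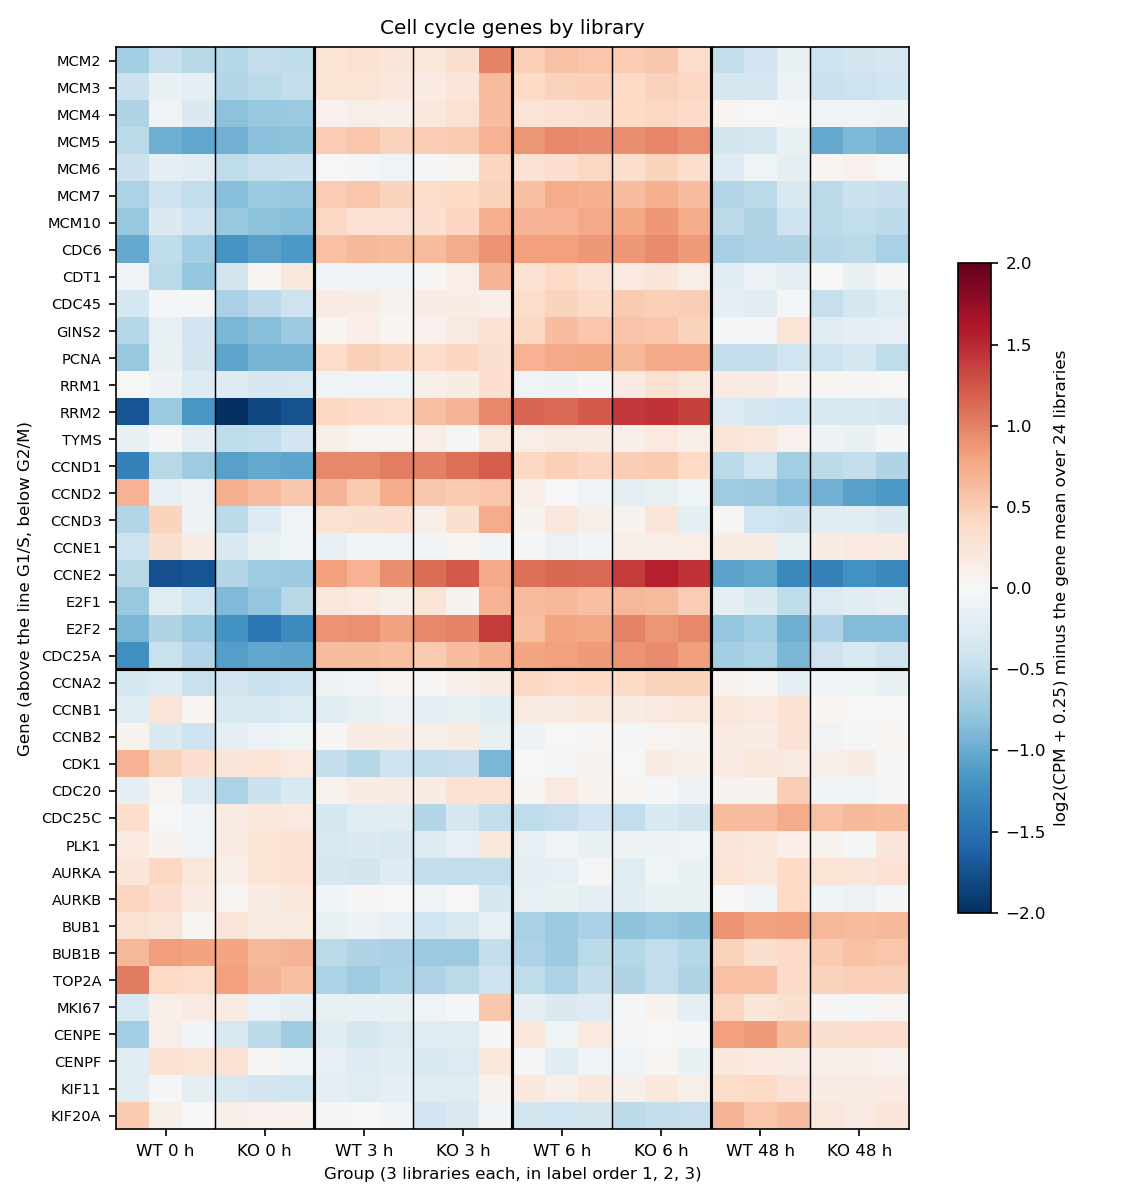
Heat map of log2(CPM + 0.25), scaled by library, minus the mean of the gene over all 24 libraries, for the 23 G1/S genes (above the line) and the 17 G2/M genes (below). Columns are libraries 1 to 3 of each group; most G1/S rows are blue at 0 h and 48 h and red at 3 h and 6 h, while BUB1B and TOP2A show the reverse.

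Most genes of origin licensing rose in both genotypes. MCM2 to MCM7 form the ring of the replicative helicase, and all 6 rose at 3 h and at 6 h. In WT the smallest changes were that of MCM6 at 3 h, 0.24, and that of MCM4 at 6 h, 0.61, and the largest at both hours that of MCM5, 1.36 and 1.78 on the log2 scale. The 3 h call of MCM6 in WT was lost on leaving out WT 0 h 1, WT 3 h 1 or WT 3 h 2 (highest adjusted p = 0.202). MCM5 was measured in WT at 153, 114 and 109.7 CPM at 0 h, 299.5, 306 and 288 at 3 h, 379, 396 and 391 at 6 h, and 179, 181 and 201 at 48 h. KO libraries held 110.2, 119.8 and 125 CPM at 0 h, 299.8, 297 and 336 at 3 h, 387, 396 and 385 at 6 h, and 111, 119.6 and 114 at 48 h. All 12 libraries at 3 h and 6 h exceeded every 0 h and 48 h library, and at 48 h all WT libraries exceeded all KO libraries. MCM4 in WT was at 226, 335 and 288 CPM at 0 h, 348, 352 and 350.4 at 3 h, 388, 386 and 396 at 6 h, and 375, 364 and 334 at 48 h. In KO it was at 191, 198 and 203 CPM at 0 h, 382, 401 and 496 at 3 h, 420.1, 415 and 415 at 6 h, and 333, 332 and 326 at 48 h. Its KO libraries were lowest at 0 h, below every other library, while the WT libraries at 3, 6 and 48 h lay close together. MCM2 ranged from 129.8 to 389.6 CPM over the 24 libraries, MCM3 from 286 to 639.8, MCM6 from 206 to 381 and MCM7 from 263 to 746, and the top value of MCM2, MCM3, MCM4 and MCM6 was that of KO 3 h library 3.

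CDC6, the ATPase that helps load the helicase, rose 2.98-fold in WT and 4.09-fold in KO by 6 h. WT libraries read 75.6, 110.1 and 98.2 CPM at 0 h, 219.8, 229 and 225 at 3 h, 253, 251 and 258 at 6 h, and 102, 105 and 101.1 at 48 h. In the KO libraries CDC6 stood at 66.1, 70.1 and 68.3 CPM at 0 h, 227, 242 and 269.8 at 3 h, 262, 269 and 258 at 6 h, and 106, 107 and 99.8 at 48 h. Each 3 h and 6 h library was at or above 219.8 CPM and each 0 h and 48 h library at or below 110.1 CPM, with no overlap. CDT1, the other loading factor, was at 23.98 to 60.9 CPM in all libraries and was called higher in WT only, by 0.40 at 3 h (adjusted p = 0.0346) and 0.79 at 6 h. In KO its changes were 0.31 and 0.22, and the difference between genotypes missed the threshold at 3 h (adjusted p = 0.851) and at 6 h (0.125). At 6 h that difference was called without WT 0 h library 1 (-0.72, adjusted p = 0.00682) or without KO 0 h library 1 (-0.73, adjusted p = 0.0436), and the KO change at 3 h was called without KO 0 h library 3 or KO 3 h library 1 (both 0.44). The 3 h call of CDT1 in WT was lost when WT 0 h library 2 or 3 or any WT 3 h library was left out (highest adjusted p = 0.221). MCM10, which helps start the loaded helicase, rose by 1.19 in WT and 1.61 in KO at 6 h.

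CDC45 and GINS2 are partners of the helicase at firing origins. GINS2 in WT read 36.1, 48.6 and 42.0 CPM at 0 h, 52.0, 55.4 and 51.8 at 3 h, 66.8, 75.9 and 71.9 at 6 h, and 55.3, 55.2 and 64.1 at 48 h. KO libraries of GINS2 gave 27.6, 28.6 and 31.6 CPM at 0 h, 54.1, 56.8 and 61.7 at 3 h, 73.7, 71.3 and 68.1 at 6 h, and 46.4, 47.2 and 48.6 at 48 h. The 6 h libraries were the highest of each genotype, and KO lay below WT at 0 h and at 48 h with no overlap. The difference was called at 0 h and not at 48 h. CDC45 rose less, by 0.26 and 0.54 in WT and by 0.67 and 1.02 in KO at 3 and 6 h. Its 3 h call in WT was lost on leaving out WT 0 h 1 or WT 3 h 1, with a highest adjusted p of 0.211. PCNA, the clamp that holds DNA polymerase on its template, was in WT at 152, 236 and 202 CPM at 0 h, 314, 337 and 324 at 3 h, 386, 400.2 and 401 at 6 h, and 191, 193 and 193 at 48 h. In KO the PCNA values were 120.3, 130.1 and 131 CPM at 0 h, 313, 325 and 299.7 at 3 h, 375, 394 and 402 at 6 h, and 196, 203 and 183 at 48 h. KO libraries were below all WT libraries at 0 h, and at the 3 later hours the genotypes overlapped.

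Genes of nucleotide supply differed among themselves. RRM2 (ENSG00000171848.9, chr2:10120698-10131419 in GRCh38) encodes the small subunit of ribonucleotide reductase and had the largest rise of all 40 genes in KO at 3 h and 6 h. RRM2 in WT was at 69.7, 141 and 105 CPM at 0 h, 291, 283 and 279 at 3 h, 483, 467 and 492 at 6 h, and 199, 188 and 175 at 48 h. In KO it was at 56.3, 63.1 and 67.6 CPM at 0 h, 334, 345 and 419.5 at 3 h, 566, 567 and 550.2 at 6 h, and 187, 188 and 185 at 48 h. Its level climbed 5.21-fold in WT (log2 2.38 ± 0.14 SE, adjusted p = 3.85e-12) and 9.55-fold in KO (3.26 ± 0.14, adjusted p = 9.45e-15) by 6 h. KO lay below WT at 0 h and above it at 3 h and 6 h, without overlap of libraries, and at 48 h the 2 genotypes overlapped. Only the 0 h difference was called. Of all genes 23.8% at 3 h and 29.7% at 6 h also had no overlap. RRM1, the large subunit, was at 172, 165 and 147 CPM at 0 h, 157, 156 and 153 at 3 h, 154, 148 and 157 at 6 h, and 204, 202 and 181 at 48 h in WT. KO libraries of RRM1 held 142, 133 and 137 CPM at 0 h, 177, 181 and 204 at 3 h, 179.9, 194 and 185 at 6 h, and 182, 177 and 175 at 48 h. WT levels at 3 h and 6 h overlapped those at 0 h, whereas all KO libraries at 3 h and 6 h exceeded all KO libraries at 0 h. TYMS makes thymidylate and was in WT at 64.0, 70.1 and 62.6 CPM at 0 h, 72.2, 69.0 and 67.5 at 3 h, 71.8, 72.9 and 72.2 at 6 h, and 87.9, 85.5 and 73.9 at 48 h. For KO it was at 48.0, 48.1 and 52.5 CPM at 0 h, 73.3, 66.8 and 76.7 at 3 h, 69.9, 72.6 and 70.2 at 6 h, and 66.8, 64.3 and 68.9 at 48 h. KO was below WT at 0 h and at 48 h in every library, and the genotypes overlapped in between. The WT call of TYMS at 3 h (log2 0.19) was lost without any of 4 libraries (WT 0 h 1 or 3, WT 3 h 1 or 2), with a highest adjusted p of 0.124.

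G1 cyclins did not move as 1 group. CCND1, a cyclin D gene and known WNT target, rose most at 3 h, 3.63-fold in WT and 4.47-fold in KO. WT libraries of CCND1 held 84.5, 150.2 and 136 CPM at 0 h, 402, 400.4 and 417 at 3 h, 269.7, 277 and 268 at 6 h, and 156, 172 and 133 at 48 h. KO libraries of CCND1 gave 99.8, 104 and 102 CPM at 0 h, 416, 437 and 472 at 3 h, 283, 282 and 265 at 6 h, and 153, 158 and 146 at 48 h. In each genotype the 3 h libraries exceeded the 6 h libraries, which exceeded those of 0 h and 48 h. CCND2, another cyclin D gene, went its own way and in WT was at 339.8, 190.3 and 197 CPM at 0 h, 319, 286 and 330.1 at 3 h, 215, 194 and 182 at 6 h, and 134, 132 and 117 at 48 h. In KO CCND2 was at 339, 311 and 300.5 CPM at 0 h, 289, 283 and 288 at 3 h, 171, 171 and 182 at 6 h, and 109, 99.4 and 95.8 at 48 h. The first WT library at 0 h matched the highest KO library, and its 2 mates lay below every KO library. CCND2 was called higher at 3 h in WT (0.51) and lower at 6 h in KO (-0.77). By 48 h CCND2 was the lowest of its course in both genotypes. The third cyclin D gene, CCND3, ranged from 6.58 to 15.8 CPM and was called higher only at 3 h in KO (0.68, adjusted p = 0.00396). The same change in WT was 0.41 (adjusted p = 0.0803; without WT 0 h library 2 it was called, at 0.67, adjusted p = 0.00354), and the difference between genotypes missed the threshold (adjusted p = 0.6).

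The 2 cyclin E genes, whose kinase drives entry into S phase, parted. CCNE2 in WT was at 13.6, 5.84 and 6.01 CPM at 0 h, 33.9, 31.0 and 36.2 at 3 h, 40.3, 41.4 and 40.6 at 6 h, and 9.84, 10.1 and 8.02 at 48 h. CCNE2 in KO was at 12.98, 11.9 and 11.8 CPM at 0 h, 41.9, 44.3 and 32.1 at 3 h, 49.1, 53.7 and 51.1 at 6 h, and 7.84, 8.66 and 8.20 at 48 h. All 3 h and 6 h libraries were at or above 31.0 CPM and all others at or below 13.6. CCNE2 had the largest rise of the 40 genes in WT, 4.48-fold at 3 h and 5.56-fold at 6 h, and its KO rise was 3.27- and 4.40-fold. CCNE1 stayed between 19.2 and 33.0 CPM in all libraries and with all libraries was called only in KO, at 6 h (0.30, adjusted p = 0.0403) and 48 h (0.35, adjusted p = 0.0236). The 6 h call was lost when any 1 of 5 libraries was left out, all but KO 0 h library 3, and the 48 h call on leaving out KO 0 h 1, KO 48 h 2 or KO 48 h 3, with highest adjusted p of 0.149 and 0.101. The interaction of CCNE1 missed the threshold at 6 h (adjusted p = 0.194) and at 48 h (0.308). Without WT 0 h library 1, which held 19.2 CPM against 33.0 and 29.3 in its mates, both were called, at 0.64 (adjusted p = 7.03e-04) and 0.60 (adjusted p = 0.00124), and CCNE1 was then called lower in WT at 3 h (-0.37, adjusted p = 0.00198) and 6 h (-0.35, adjusted p = 0.00293).

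E2F2, one of the activating E2F factors, was in WT at 4.81, 6.14 and 5.52 CPM at 0 h, 16.6, 16.7 and 15.3 at 3 h, 13.2, 14.8 and 14.7 at 6 h, and 5.58, 5.91 and 4.55 at 48 h. In KO E2F2 was at 3.82, 3.15 and 3.59 CPM at 0 h, 17.4, 17.4 and 23.3 at 3 h, 17.2, 15.6 and 16.99 at 6 h, and 6.06, 5.01 and 5.02 at 48 h. Both early hours were above both outer hours in each library, and KO was below WT at 0 h and above it at 3 h and 6 h. Only the 0 h difference was called. E2F1, its relative, rose by 1.10 in WT and 1.34 in KO at 6 h, within a range of 14.2 to 41.4 CPM. CDC25A is the phosphatase that activates cyclin E and cyclin A kinases. It was in WT at 61.2, 107 and 97.0 CPM at 0 h, 208, 208 and 205 at 3 h, 231, 233 and 237 at 6 h, and 93.7, 95.9 and 75.2 at 48 h. The KO values of CDC25A were 64.7, 67.6 and 67.7 CPM at 0 h, 196, 207 and 221 at 3 h, 246, 249 and 237 at 6 h, and 109.5, 115 and 109 at 48 h. The 12 libraries of 3 h and 6 h lay at or above 196 CPM and the other 12 at or below 115, and at 48 h each KO library was above each WT library. That 48 h difference was not called.

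**Figure D2:**
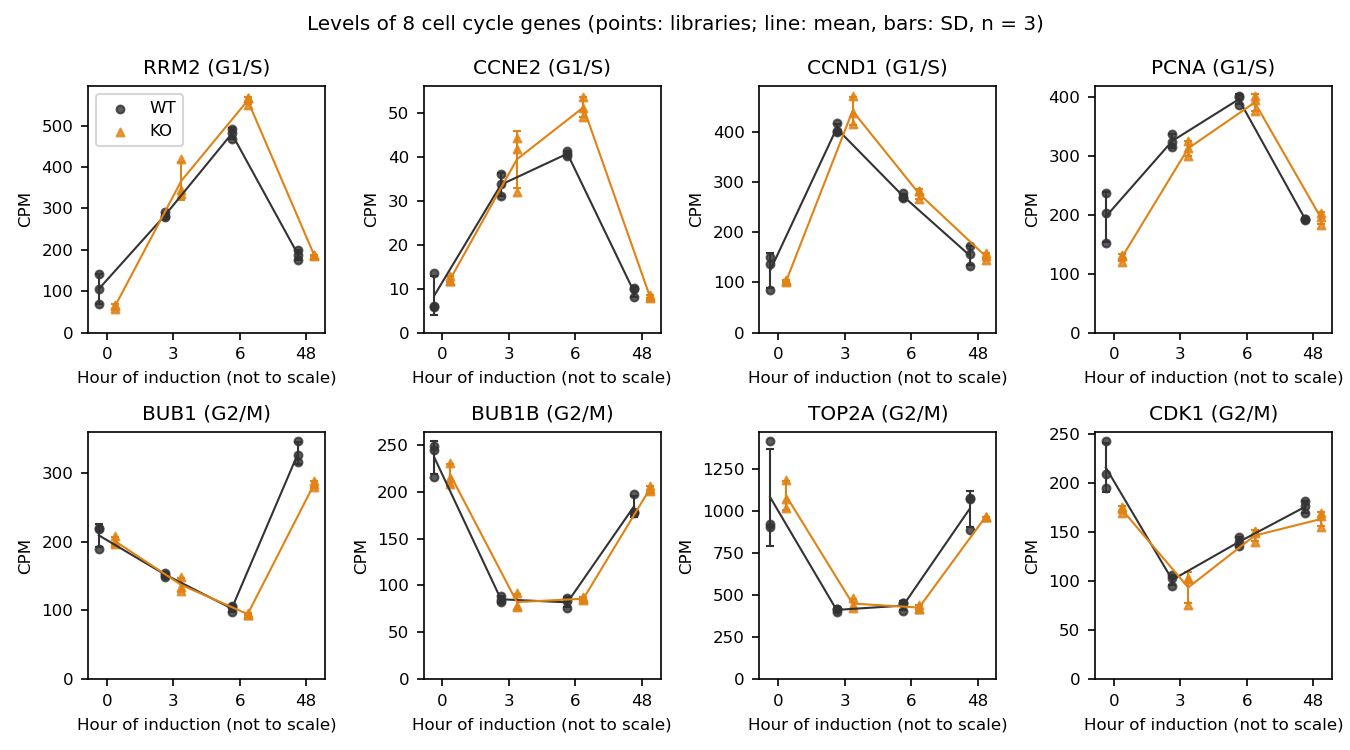
CPM of 4 G1/S genes (top) and 4 G2/M genes (bottom) against hour, with points for libraries, lines for group means and bars for SD (n = 3); hours are evenly spaced and not to scale. RRM2, CCNE2, CCND1 and PCNA peak at 3 h or 6 h, and BUB1, BUB1B, TOP2A and CDK1 are lowest there.

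Most mitotic kinases, both BUB1 genes and TOP2A fell in the same hours. BUB1B (ENSG00000156970.8, chr15:40161023-40221136) encodes the spindle checkpoint kinase BUBR1 and was in WT at 216, 249 and 245 CPM at 0 h, 89.3, 84.5 and 82.0 at 3 h, 83.1, 76.2 and 86.6 at 6 h, and 197, 178 and 177 at 48 h. In KO BUB1B was at 231, 209 and 215 CPM at 0 h, 78.0, 76.6 and 92.1 at 3 h, 85.1, 87.8 and 84.7 at 6 h, and 201, 206 and 203 at 48 h. Its level at 3 h was 2.58-fold lower than at 0 h in WT (log2 -1.37 ± 0.078 SE, adjusted p = 2.29e-12) and 2.56-fold lower in KO (-1.36 ± 0.078, adjusted p = 1.07e-12), with no overlap. TOP2A, which untangles DNA before division, was in WT at 1417, 925 and 907 CPM at 0 h, 419.6, 397 and 419 at 3 h, 451, 408 and 454 at 6 h, and 1074, 1078 and 888 at 48 h. KO values of TOP2A were 1185, 1070.3 and 1019 CPM at 0 h, 425, 442 and 482 at 3 h, 418, 441 and 419 at 6 h, and 966, 965 and 967 at 48 h. WT 0 h library 1 was the highest of all, and every 3 h and 6 h library was at or below 482 CPM against at least 888 in all others. BUB1, the partner kinase of the checkpoint, was in WT at 220.1, 218 and 190.2 CPM at 0 h, 152, 155 and 149 at 3 h, 106, 97.7 and 105 at 6 h, and 347, 326 and 316 at 48 h. The KO course of BUB1 was 208, 197 and 199 CPM at 0 h, 128, 135 and 149 at 3 h, 93.9, 96.0 and 94.1 at 6 h, and 288, 279.8 and 285 at 48 h. In both genotypes 6 h was lowest and 48 h highest, and at 48 h all KO libraries were below all WT libraries, though the difference missed the threshold (log2 -0.19, adjusted p = 0.0896).

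CDK1 is the kinase that starts mitosis. WT libraries of CDK1 gave 243, 209.5 and 195 CPM at 0 h, 103, 95.3 and 106 at 3 h, 139.5, 135 and 145 at 6 h, and 177, 181 and 169 at 48 h. KO libraries of CDK1 gave 173, 176 and 170.0 CPM at 0 h, 103, 103 and 75.2 at 3 h, 139.7, 151 and 149 at 6 h, and 166, 169 and 155 at 48 h. It was lowest at 3 h in both genotypes, below every library of the other hours. At 6 h CDK1 was called lower in WT (-0.49) and not in KO (-0.15, adjusted p = 0.166), and the difference between genotypes missed the threshold (adjusted p = 0.149). CDC25C, the phosphatase that activates CDK1, was in WT at 47.0, 37.0 and 35.5 CPM at 0 h, 27.3, 29.2 and 29.3 at 3 h, 24.04, 24.3 and 25.8 at 6 h, and 59.8, 59.1 and 61.5 at 48 h. KO libraries of CDC25C stood at 40.1, 41.0 and 41.1 CPM at 0 h, 23.2, 27.4 and 24.5 at 3 h, 24.1, 27.0 and 26.3 at 6 h, and 56.2, 58.0 and 57.9 at 48 h. Both early hours lay below 0 h and all 48 h libraries above every other library. AURKA, a spindle pole kinase, in WT was at 118, 136 and 119 CPM at 0 h, 74.9, 73.1 and 78.4 at 3 h, 82.3, 81.6 and 89.3 at 6 h, and 127, 120.0 and 132 at 48 h. In KO it was measured at 106, 118 and 121 CPM at 0 h, 68.3, 67.0 and 67.1 at 3 h, 77.7, 85.2 and 84.2 at 6 h, and 123, 119 and 124 at 48 h. All 12 libraries at 3 h and 6 h were at or below 89.3 CPM and the other 12 at or above 106. AURKB, the kinase of the chromosome passenger complex, fell at 3 h and 6 h, with log2 changes of -0.32 and -0.47 in WT and -0.28 and -0.30 in KO. The 3 h call of AURKB in KO was lost on leaving out KO 0 h 3 or KO 3 h 3, with a highest adjusted p of 0.112. PLK1, a kinase of mitotic entry and exit, was in WT at 116, 108 and 98.2 CPM at 0 h, 76.6, 77.7 and 76.2 at 3 h, 84.1, 87.1 and 84.1 at 6 h, and 124, 123 and 110.3 at 48 h. PLK1 in KO was at 110.0, 118 and 121 CPM at 0 h, 80.3, 84.4 and 109 at 3 h, 87.1, 85.1 and 87.4 at 6 h, and 107, 99.6 and 121 at 48 h. KO 3 h library 3 stood above its mates, and PLK1 was called lower at 3 h in both genotypes and at 6 h in KO (-0.34). Its change at 6 h in WT was -0.19 (adjusted p = 0.0793), and the interaction had an adjusted p of 0.579. That WT change was called with RLE factors, CPM as deposited or DESeq2, and without WT 0 h library 3 (-0.26, adjusted p = 0.035). Without KO 3 h library 1 the KO call at 3 h was lost (adjusted p = 0.0554).

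Mitotic motors and kinetochore genes split. KIF20A, a kinesin of cytokinesis, was in WT at 146, 113 and 103 CPM at 0 h, 95.004, 96.2 and 91.9 at 3 h, 73.8, 70.8 and 72.1 at 6 h, and 171, 157 and 155 at 48 h. The KO libraries gave 107, 105 and 106 CPM at 0 h, 74.3, 78.6 and 91.9 at 3 h, 65.5, 66.3 and 68.8 at 6 h, and 122, 115 and 123 at 48 h. It was lowest at 6 h in both genotypes, and at 48 h each KO library was below each WT library. The WT call of KIF20A at 3 h (log2 -0.24) was lost without WT 0 h library 1 or any WT 3 h library, with a highest adjusted p of 0.152. KIF11, the kinesin that separates spindle poles, was not called lower at 3 h or 6 h with all libraries. In WT it was at 133, 155 and 139.6 CPM at 0 h, 129.9, 123 and 129 at 3 h, 168, 154 and 165 at 6 h, and 209, 213 and 189 at 48 h. These CPM were lower at 3 h than at 0 h in every library. The scaled log2 values overlapped (6.98 to 7.05 at 3 h and 7.01 to 7.21 at 0 h). KO values of KIF11 were 123, 116 and 116 CPM at 0 h, 125, 123 and 152 at 3 h, 154, 163 and 156 at 6 h, and 178, 175 and 176 at 48 h. It was called higher than at 0 h at 6 h and 48 h in both genotypes and at 3 h in KO (log2 0.22), a call lost on leaving out KO 0 h 2, KO 0 h 3 or KO 3 h 3 (highest adjusted p = 0.132). CENPE, a kinetochore motor, was in WT at 76.2, 135 and 119 CPM at 0 h, 97.2, 89.7 and 94.8 at 3 h, 133, 105 and 128 at 6 h, and 224, 229 and 187 at 48 h. CENPE in KO was at 95.5, 82.4 and 73.0 CPM at 0 h, 97.8, 96.6 and 112 at 3 h, 109, 111 and 109 at 6 h, and 155, 154 and 155 at 48 h. WT 0 h library 1 lay within the KO range, below its mates, and all 48 h libraries were above all others. With all libraries its calls at 3 h and 6 h were in KO only, and the difference between genotypes missed the threshold at 3 h (adjusted p = 0.184) and 6 h (0.666). Both were called without WT 0 h library 1 (0.67 and 0.44, adjusted p = 0.00112 and 0.0242), and CENPE was called lower at 3 h in WT (-0.36, adjusted p = 0.00574). At 6 h in WT it was called higher without WT 0 h 2, WT 0 h 3 or WT 6 h 2 (0.38 to 0.47). The 3 h call of CENPE in KO was lost on leaving out KO 0 h 2, KO 0 h 3 or KO 3 h 3 (highest adjusted p = 0.170). CENPF, a kinetochore protein, ranged from 288 to 466 CPM, and MKI67, which coats mitotic chromosomes and marks cycling cells, from 231 to 431. At 3 h CENPF was called lower in WT (-0.33, adjusted p = 0.0301), a call lost on leaving out WT 0 h 2, WT 0 h 3, WT 3 h 2 or WT 3 h 3 (highest adjusted p = 0.136). The WT change at 3 h was -0.53 without WT 0 h library 1, and CENPF was then called lower at 6 h too (-0.43, adjusted p = 0.00159). The KO change of CENPF at 3 h was called without KO 3 h library 3 (-0.36, adjusted p = 0.00929). MKI67 was not called at 3 h or 6 h in either genotype with all libraries, and without WT 0 h library 1 it was called lower in WT at 3 h (-0.34, adjusted p = 0.0204) and 6 h (-0.45, adjusted p = 0.00274).

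With all libraries in the fit, none of the 3 cyclins of the G2/M list, nor CDC20, was called lower at 3 h or 6 h. CCNA2, cyclin A, which acts in S phase as well as in G2, was in WT at 144, 154 and 137 CPM at 0 h, 162, 164 and 177 at 3 h, 227, 217 and 221 at 6 h, and 199.9, 193 and 160.2 at 48 h. CCNA2 in KO read 137, 130.1 and 134 CPM at 0 h, 176, 187 and 193 at 3 h, 223, 225 and 232 at 6 h, and 179, 173 and 169.8 at 48 h. Every 6 h library was above every other library, so its course followed that of the G1/S genes. CCNB1, the main mitotic cyclin, was in WT at 207, 299.7 and 259 CPM at 0 h, 199, 209 and 212 at 3 h, 259, 251 and 261 at 6 h, and 298, 291 and 298 at 48 h. The KO libraries of CCNB1 stood at 191, 192 and 198 CPM at 0 h, 207, 208 and 199 at 3 h, 251, 254 and 266 at 6 h, and 256, 245 and 250.05 at 48 h. WT 0 h library 1 was below its mates and nearer to KO, and the 0 h libraries of KO were below those of 6 h and 48 h. CCNB1 was called higher at 6 h in KO (0.49) and not in WT (0.16, adjusted p = 0.107), with an adjusted p of 0.0948 for the difference. Without WT 0 h library 1 the WT change at 6 h was -0.013 and the difference was called (0.50, adjusted p = 3.08e-04), as it was by DESeq2. CCNB1 was then also called lower in WT at 3 h (-0.36, adjusted p = 1.27e-04, against -0.19 and 0.0721 with all libraries), a call that RLE factors, CPM as deposited and DESeq2 made as well. Without WT 0 h library 2, in contrast, the WT change at 6 h was called higher (0.28, adjusted p = 0.00352). CCNB2, a second mitotic cyclin, was in WT at 138, 109.6 and 100.98 CPM at 0 h, 127, 138 and 138 at 3 h, 114, 119.8 and 123 at 6 h, and 154, 153 and 161 at 48 h. KO libraries of CCNB2 gave 113, 118 and 122 CPM at 0 h, 136, 137 and 112 at 3 h, 119.6, 124 and 128 at 6 h, and 127, 131 and 137 at 48 h. WT and KO overlapped at 0, 3 and 6 h and not at 48 h, where WT was higher in every library (log2 -0.22, adjusted p = 0.162, not called). With all libraries its only call before 48 h was at 3 h in WT (0.32, adjusted p = 0.00706), lost without WT 0 h library 3 (adjusted p = 0.0672). CCNB2 was called higher at 6 h in WT without WT 0 h library 1 (0.28, adjusted p = 0.00981) and at 3 h in KO without KO 3 h library 3 (0.26, adjusted p = 0.0229). CDC20, which activates the ubiquitin ligase that ends metaphase, was in WT at 108, 131 and 106 CPM at 0 h, 123, 129.6 and 129 at 3 h, 119.5, 131 and 119 at 6 h, and 136, 135 and 174 at 48 h. CDC20 in KO stood at 77.9, 88.8 and 98.3 CPM at 0 h, 130.1, 143 and 142 at 3 h, 118, 109.6 and 106 at 6 h, and 120.5, 118 and 123 at 48 h. In CPM KO was below WT at 0 h in every library, just above it at 3 h and below it again at 6 h and 48 h. The scaled log2 values overlapped at 3 h (7.05 to 7.21 in KO and 6.98 to 7.06 in WT). Only the 0 h difference was called. In KO CDC20 was called higher at 3 h (0.70) and at 6 h (0.43), and in WT at 3 h (0.25, adjusted p = 0.0444). That WT call was lost without WT 0 h library 1 or 3 or any WT 3 h library, with a highest adjusted p of 0.173.

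By 48 h most of the early shift had gone. Against 6 h, 19 G1/S genes were lower and 1 higher in WT (background 32.8% lower and 30.9% higher, 63.8% in all), and 20 were lower and 0 higher in KO (32.6% and 30.1%, 62.8% in all). Libraries did not overlap for 70.4% of all genes in WT and 77.1% in KO. At an unadjusted p under 0.05, and by edgeR and DESeq2, the count of G1/S genes higher in KO was also 0. Of the G2/M genes, 12 were higher and 1 lower in WT, and 7 higher and 1 lower in KO. The 1 lower G2/M gene was CCNA2 in both, and the 1 higher G1/S gene in WT was RRM1, a call lost without any of 4 libraries (highest adjusted p = 0.0727). Called in both genotypes were 18 G1/S falls and 7 G2/M rises, the latter AURKA, BUB1, BUB1B, CDC25C, CENPE, KIF20A and TOP2A. The share of all genes called in both was not computed here either. CCNE2 fell most, with log2 changes of -2.26 in WT and -2.74 in KO (adjusted p = 1.03e-09 and 4.24e-11), and BUB1 rose most, by 1.52 and 1.44 (adjusted p = 2.15e-14 and 6.29e-14). These comparisons share the 6 h libraries with those of 6 h against 0 h.

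Compared with 0 h directly, part of the members were not at their 0 h levels at 48 h. In WT 7 G1/S genes were higher and 1 lower (CCND2), and 10 G2/M genes were higher and 2 lower (BUB1B and CDK1), against a background of 26.8% higher and 26.5% lower (53.3% in all). The KO cells had 15 G1/S genes higher and 2 lower (CCND2 and CCNE2), and 7 G2/M genes higher and 0 lower, against 25.4% and 27.4% (52.8% in all). Libraries of 48 h and 0 h did not overlap for 49.1% of all genes in WT and 70.7% in KO. For that 0, 1 G2/M gene was lower at an unadjusted p under 0.05 and 0 by edgeR and DESeq2. In total 20 of 40 members were called in WT and 24 of 40 in KO, near the 53.3% and 52.8% of all genes. RRM2 was still above 0 h, by 0.87 in WT and 1.53 in KO, and CCND2 was below it, at -0.89 and -1.70 on the log2 scale. CENPE rose by 0.97 and 0.84, and CDC25C by 0.58 and 0.44. In WT the 20 calls were 9 when the fit held only the 2 groups compared. Without WT 0 h library 1 the WT median of the G1/S genes was -0.02 in place of 0.12, and the WT calls of MCM4, CCND1, CCNB1, CDK1 and MKI67 were lost. In the same fit PCNA (-0.21), CCND3 (-0.45) and CDC25A (-0.24) were newly called lower and CDT1 (0.47) and CCNE2 (0.60) newly higher, which made 7 G1/S genes higher and 4 lower.

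Before induction KO cells had less of many G1/S transcripts. At 0 h, 10 G1/S genes were lower in KO than in WT and 2 higher, while 2 G2/M genes were lower and 0 higher, against 6.52% lower and 8.77% higher, 15.3% in all, of all genes, of which 25% had no overlap of libraries. No G2/M gene was higher at an unadjusted p under 0.05 or by edgeR or DESeq2. The lower G1/S genes were RRM2 (-0.64 ± 0.14 SE, adjusted p = 0.00407), E2F2 (-0.55), PCNA (-0.55 ± 0.10, adjusted p = 7.06e-04), GINS2 (-0.46), MCM4 (-0.45), CDC6 (-0.40), CDC45 (-0.39), TYMS (-0.35), MCM10 (-0.32) and MCM7 (-0.26) on the log2 scale. The higher ones were CCNE2 (0.67, adjusted p = 0.0234) and CCND2 (0.49, adjusted p = 0.02). CCNB1 (-0.33, adjusted p = 0.0128) and CDC20 (-0.32, adjusted p = 0.0385) were the lower G2/M genes. The median difference was -0.27 for G1/S genes, -0.06 for G2/M genes and 0.01 for all genes.

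How many genes were called at 0 h turned on 1 library and on the fit. WT 0 h library 1, the one that stood apart, was below both mates in 17 of 23 G1/S genes and nearer to the KO mean than to its mates in 20 of 23, and in 11 of 17 G2/M genes. It lay outside the range of the KO libraries in 21 of 23 G1/S genes and 13 of 17 G2/M genes. These placements were not computed over all genes, so they are not shown to be particular to the members. Without it, 17 G1/S genes were lower and 3 higher in KO, and 4 G2/M genes lower and 1 higher, while the calls among all genes rose from 15.3% to 33.6%. The medians were then -0.45 and -0.14. RRM2 became -0.93, PCNA -0.75, CCNE2 1.04 and CCND2 0.74, and the G2/M genes called were CCNB1, CDC20, CENPE and KIF11 (lower) and TOP2A (higher). With only the 6 libraries of 0 h in the fit, 0 of the 40 members were called, as were 0.716% of all genes. Leaving out WT 0 h library 2 left 7 members called, and leaving out KO 0 h library 2 left 9. No called member changed sign under any of these settings.

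**Figure D3:**
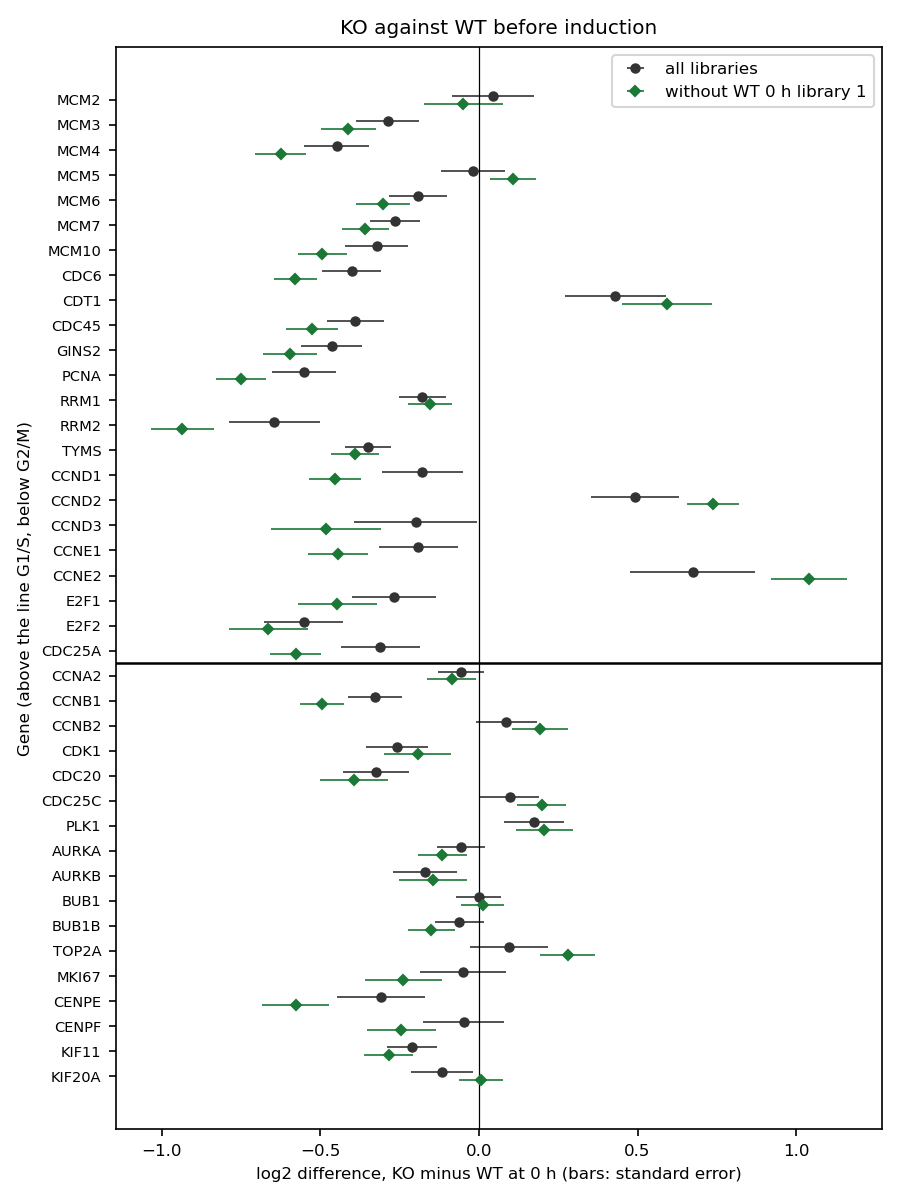
KO minus WT difference at 0 h on the log2 scale for each of the 40 genes, with bars for the standard error, from all libraries (circles) and without WT 0 h library 1 (diamonds). Most G1/S genes lie left of 0 and move further left without that library, and CCNE2, CCND2 and CDT1 lie right of it.

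At 3 h and 6 h almost no member differed between the genotypes by the test. RRM1 was at both hours the 1 member called, higher in KO by 0.27 (adjusted p = 0.04997) and by 0.29 (adjusted p = 0.0302), which is 1 of 40 members at each hour. Of all genes 2.78% were called at 3 h (0.862% higher, 1.92% lower) and 2.45% at 6 h (0.555% higher, 1.9% lower), so that the count is near the background, and 23.8% and 29.7% had no overlap of libraries. The 3 h call was lost under 6 of 9 other settings and without any 3 h library other than KO 3 h library 1, and the 6 h call without any 1 of the 6 libraries (highest adjusted p = 0.184 and 0.194). No G2/M member was called at 3 h or 6 h by limma, edgeR or DESeq2; at an unadjusted p under 0.05, 2 were higher and 2 lower at 3 h and 0 at 6 h. Nearest to a call among them were PLK1 at 3 h (0.24, adjusted p = 0.219) and BUB1 at 6 h (-0.11, adjusted p = 0.686). A p that misses the threshold does not show that the other members were alike.

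At 48 h, 4 of 40 members were called, 0 higher and 4 lower in KO, against 11.9% of all genes (6.86% higher, 5.07% lower), which is near the background. Libraries of WT and KO did not overlap for 36.2% of all genes at this hour. MCM5 differed most, at -0.68 ± 0.10 SE (adjusted p = 4.55e-05), and TYMS, CENPE and KIF20A differed by -0.28, -0.44 and -0.41 on the log2 scale. For the 0 higher, 2 G1/S and 0 G2/M genes were higher at an unadjusted p under 0.05, with 0 by edgeR and 1 G1/S gene by DESeq2. TYMS lost its call on leaving out WT 48 h 1 or KO 48 h 2 (highest adjusted p = 0.0535), and CENPE without any 48 h library other than WT library 3 (0.127) and also with RLE factors, with no filter and with the replicate number as a block. The 40 members had 7 calls by DESeq2, 8 with only the 48 h libraries in the fit and 15 without the 3 libraries that stood apart. Of all genes 14% were called in the second of these fits and 24.1% in the last. Marker levels differed between the genotypes at that hour: primitive streak and mesoderm markers summed to 1665 to 1860 CPM in WT and 1027 to 1152 in KO, with 7 of 8 called lower in KO, and stem cell markers to 5431 to 5714 in WT and 7381 to 7719 in KO, with 7 of 8 called higher. MESP1, which defines early mesoderm, had a mean of 4.85 CPM in WT and 0.0565 in KO, and HAND1 was under 1 CPM in both. Endoderm markers summed to 2213 to 2615 CPM in WT and 2593 to 2995 in KO, most of it CER1 (means of 2260 and 2539), and 2 of 5 were called higher in KO, FOXA2 (19.9 and 49.1) and CXCR4 (10.6 and 42.5). Of the markers tested, 1 of 4 neuroectoderm markers was called higher, 1 of 4 fibroblast markers lower and 0 of 4 amnion and trophoblast markers. The part of these marker differences in the 4 calls was not tested.

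The rise from 0 h was larger in KO for part of the G1/S list. The test compares the change from 0 h in KO with that in WT. At 3 h it called 10 G1/S genes with the larger change in KO and 0 with the smaller, and 0 G2/M genes, against 3.59% and 5.45% (9.04% in all) of all genes. At 6 h it called 9 and 1, with 0 G2/M genes, against 3.12% and 5.46% (8.58% in all). At 48 h it called 5 and 2, with 0 G2/M genes, against 3.83% and 3.92% (7.75% in all). RRM2 gave the largest difference, 1.01 ± 0.20 SE at 3 h (adjusted p = 0.00247), as the KO change was 2.60 and the WT change 1.59. E2F2 followed at 0.80 and MCM4 at 0.72. At 6 h CCND2 went the other way, at -0.65, and at 48 h CCND2 and MCM5 did, at -0.80 and -0.66. For the 0 G2/M genes, an unadjusted p under 0.05 gave 4 larger and 1 smaller at 3 h, 2 and 0 at 6 h, and 0 and 3 at 48 h, while edgeR called 0 at each hour and DESeq2 1, 1 and 0. For the 0 smaller G1/S genes at 3 h, 1 passed an unadjusted p under 0.05, 0 passed by edgeR and 1 by DESeq2. All 3 tests and the 0 h comparison share the same 6 libraries of 0 h, so the larger rise and the lower starting level are not separate observations. With only the 12 libraries of the 2 hours in each fit, the test called 0 members at 3 h, 5 at 6 h and 0 at 48 h, and 3.09%, 6.92% and 3.46% of all genes. When WT 0 h library 1 was left out the members called were 24, 21 and 21, and the share of all genes 25.8%, 25.5% and 26.3%. When WT 0 h library 2 was left out the counts of members were 7, 3 and 3. At 6 h the count fell to 5 or 6 on leaving out any of 6 libraries (WT 0 h 3, KO 0 h 1, WT 6 h 1, WT 6 h 3, KO 6 h 1 and KO 6 h 2). At 48 h it fell to 3 or 4 on leaving out any other library except WT 48 h library 2.

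**Figure D4:**
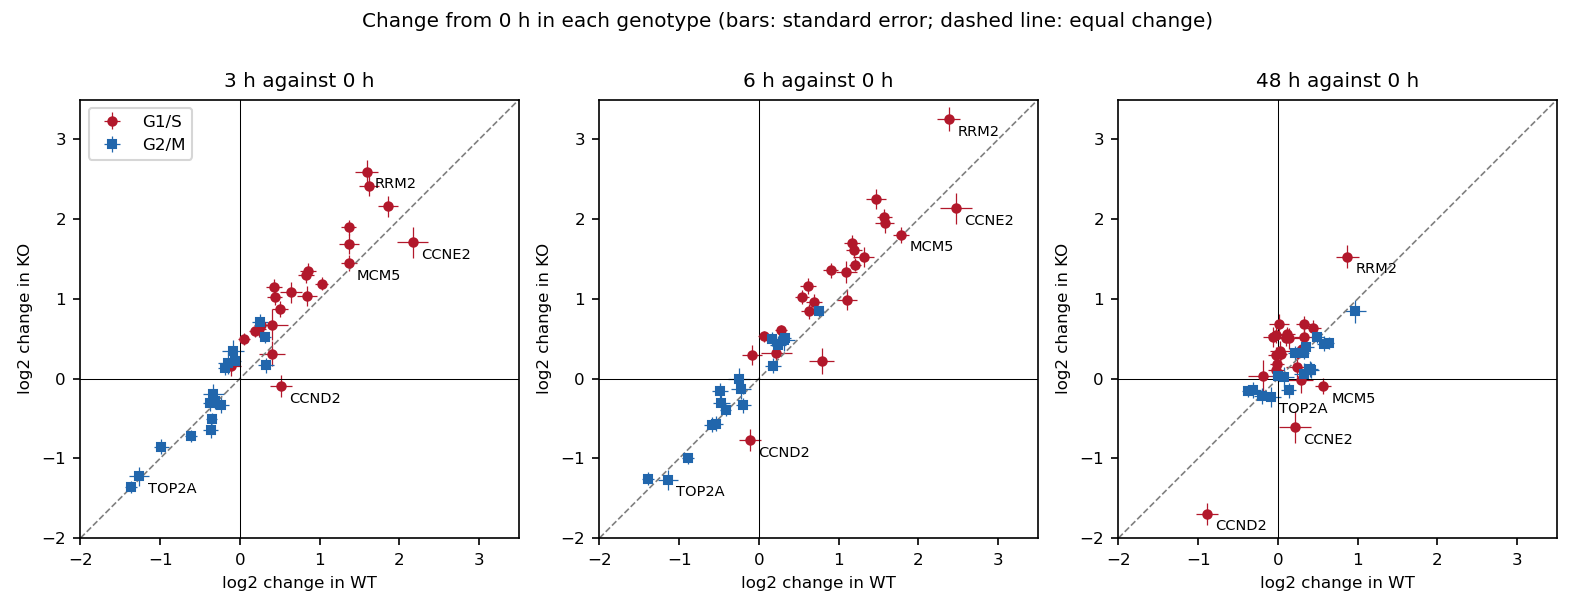
Change from 0 h in KO against the change in WT on the log2 scale at 3, 6 and 48 h, one point per gene with standard error bars; circles are G1/S and squares G2/M genes. G1/S points lie mostly above the dashed line of equal change, and G2/M points lie along it, with CCND2, CCNE2 and MCM5 (at 48 h) below.

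Other genes of DNA replication moved in both directions. Of 44 measured, 20 were higher and 10 lower at 3 h in WT, 28 and 8 at 6 h, and in KO 29 and 6, then 31 and 5. Of all genes 55.7% and 62.1% were called in WT at these hours and 65.7% and 68.5% in KO. GINS3, a GINS subunit, rose by 1.79 in WT and 2.13 in KO at 6 h, and CLSPN, a replication checkpoint adaptor, by 2.19 in KO. WDHD1, a replisome protein, fell at 3 h, with log2 changes of -1.60 in WT and -2.27 in KO, from 192 to 241 CPM in the WT libraries of 0 h to 66.0 to 71.6 at 3 h. At 0 h 13 of these 44 were lower in KO and 1 higher, against 6.52% and 8.77% of all genes. At 48 h, where 11.9% of all genes were called, 1 of the 44 differed between the genotypes, TIMELESS, a fork protection protein, lower in KO with a log2 difference of -0.32.

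Further mitosis genes went both ways. Of 44, 9 were higher and 20 lower at 3 h in WT, 13 and 16 at 6 h, and in KO 10 and 15, then 18 and 10. Of all genes in WT 28.6% were higher and 27.1% lower at 3 h (55.7% in all), and 31.1% and 31% at 6 h (62.1%). In KO these shares were 33.1% and 32.6% at 3 h (65.7%), and 33.4% and 35.1% at 6 h (68.5%). In total the mitosis genes called were below the share of all genes in KO and near it in WT at 6 h. NCAPG, a condensin subunit, fell at 3 h in WT (log2 -1.02), and MYBL2, a transcription factor that activates G2/M genes, rose by 0.88 in WT and 1.26 in KO. UBE2C, the ubiquitin-conjugating enzyme of the anaphase ligase, was higher at 48 h than at 0 h by 1.25 in WT and 0.85 in KO. Between genotypes, 6 were lower in KO at 0 h, and at 48 h 5 were lower and 1 higher, in total near the 15.3% and 11.9% of all genes called at these hours, of which 6.52% and 5.07% were lower in KO. ANLN, an actin-binding protein of the cleavage furrow, had 289, 270.3 and 275 CPM in WT at 48 h and 193, 186 and 192 in KO, a log2 difference of -0.53 (adjusted p = 3.17e-05). The WT and KO libraries of ANLN did not overlap at 48 h.

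Among 30 RB family genes and cell cycle regulators, 14 were higher and 8 lower in WT at 3 h and 17 and 9 at 6 h, with 14 and 8, then 18 and 8, in KO, against 55.7% and 62.1% of all genes in WT and 65.7% and 68.5% in KO. CCNG2, a cyclin linked to cell cycle arrest, fell from 30.6, 22.8 and 24.6 CPM in WT at 0 h to 3.24, 2.85 and 2.82 at 6 h and stood at 44.3, 45.9 and 31.5 at 48 h. In KO it went from 47.4, 44.3 and 42.1 to 3.63, 4.66 and 3.78 and then 53.8, 54.8 and 58.7. Its log2 change at 6 h was -2.89 in WT and -3.31 in KO (adjusted p = 4.70e-14 and 1.65e-15), so that it was low in the hours when most G1/S members were high. RB1, the retinoblastoma protein that holds E2F, rose from 6 h to 48 h by 1.92 in WT and 1.65 in KO. E2F8, a repressive E2F, rose at 3 h by 1.33 in WT and 2.09 in KO and started lower in KO (-0.59). CDK6, a partner of cyclin D, was at 73.6, 57.8 and 73.5 CPM in WT and 156, 140.4 and 123 in KO at 0 h, higher in KO by 1.09 (adjusted p = 1.05e-06), and no library overlapped.

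Of 8 CDK inhibitor genes, 6 had enough reads to be tested. CDKN1A, which encodes the CDK inhibitor p21, was in WT at 27.1, 43.3 and 40.5 CPM at 0 h, 76.1, 75.4 and 73.4 at 3 h, 100.05, 109 and 98.1 at 6 h and 14.9, 13.1 and 15.2 at 48 h. In KO the values were 12.8, 17.6 and 19.6 at 0 h, 68.9, 69.1 and 70.0 at 3 h, 83.6, 86.1 and 76.6 at 6 h and 27.2, 21.2 and 18.4 at 48 h. It therefore rose and fell in the same hours as the G1/S members. KO was below WT at 0 h in every library (-1.08, adjusted p = 4.62e-05) and above it at 48 h in every library (0.62, adjusted p = 0.0069). The KO minus WT difference of its change from 0 h to 48 h was 1.70 (adjusted p = 1.62e-05). CDKN1B, the inhibitor p27, fell at 6 h, with log2 changes of -0.69 in WT and -1.06 in KO, and rose from 6 h to 48 h by 0.99 and 1.12.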

How the data were processed

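RNA was made into 24 libraries with a stranded mRNA kit and sequenced, per the labels' protocols. The authors deposited a gene table of CPM (read counts scaled to library size) and a table of transcript read counts. Genome build hg38 and DESeq2 are named in the submitters' processing notes. Aligner, counting rule and annotation are not given in the sources used here, so how reads shared with pseudogenes or overlapping genes were counted is unknown. The CPM table's header is shifted by 1 cell, so columns were read by position: 24 of 24 libraries then correlated best with deposited transcript counts of their own group (20 with their own name), against 1 of 24 by the unshifted header. Low CPM values were whole multiples of 1 read in 100% of values (tolerance 0.1 read), which gives depths of 29896358 to 50451908 reads per library, with 3 reads equal to 0.0595 to 0.100 CPM.

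The main test was limma (3.58.1) with a mean-variance trend on log2 of CPM scaled by TMM factors plus a pseudocount of 0.25. The fit held all 8 groups and the 19835 genes passing edgeR's filterByExpr (10 reads, 15 in all). Differences are on that scale, which understates the change of low genes; p-values were Benjamini-Hochberg adjusted within each of 15 comparisons, with a threshold of 0.05. The test of a difference between genotypes is an interaction term. Library values and sums in the text are CPM as deposited, not scaled by the TMM factors. Calls and the shares of all genes without overlap use the scaled values. Alternatives were RLE factors, CPM as deposited, no filter (38005 genes), a pseudocount of 1, edgeR (4.0.16) quasi-likelihood and DESeq2 (1.42.0) on recovered reads, only the groups compared, the replicate number as a block, leaving out each library, and leaving out the 3 that stood apart. On simulated data for KO against WT at 48 h (19835 genes), 88.1% of 1.5-fold, 100% of 2-fold and 100% of 4-fold changes were recovered, with 13 false among 205 calls. The simulated spread was assumed and set alike for every gene. R 4.3.3 and Python 3.11.15 were used.

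The members and gene lists were chosen with earlier results of these data known. Library values are given for the called members with the largest absolute change, up to 5 per list and comparison (the 1 with the smallest adjusted p where none was called), and up to 3 called genes per other list and comparison are named. A gene that this rule names is not reported here.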

Additional observations from a re-analysis of the deposited data

Results flagged for a closer look

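For 27 values the change from 0 h differed between KO and WT by the interaction test (limma, adjusted p under 0.05); each is the KO change minus the WT change on the log2 scale. At 3 h the change was larger in KO for RRM2 (1.01), E2F2 (0.80), MCM4 (0.72), GINS2 (0.58), CDC6 (0.53), PCNA (0.50), MCM10 (0.47), RRM1 (0.45), CDC45 (0.41) and TYMS (0.41). At 6 h it was larger for RRM2 (0.87), E2F2 (0.78), MCM4 (0.55), PCNA (0.54), CDC45 (0.48), RRM1 (0.47), GINS2 (0.46), CDC6 (0.46) and TYMS (0.33), and smaller for CCND2 (-0.65). At 48 h it was larger for CDC25A (0.67), RRM2 (0.66), PCNA (0.58), E2F2 (0.58) and CDC6 (0.44), and smaller for CCND2 (-0.80) and MCM5 (-0.66). All 27 values use the 6 libraries of 0 h, among them WT library 1, which stood apart. With the fit restricted to the groups compared, 0 members were called at 3 h, 5 at 6 h and 0 at 48 h, and 3.09%, 6.92% and 3.46% of all genes.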

How the results depend on the processing

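Of 281 calls of a member in a comparison, 0 changed sign and 358 of 4377 recomputed values lost the call. The members called in KO against WT at 3 h (1) were 0 with RLE factors, CPM as deposited, no filter, edgeR or the replicate block. With only the groups compared, KO against WT had 0 called at 0 h (14 with all groups), 0 at 3 h, 4 at 6 h (1) and 8 at 48 h (4), that of WT at 48 h against 0 h was 9 (20), and the interaction had 0 called at 3 h (10), 5 at 6 h (10) and 0 at 48 h (7). Of all genes these fits called 0.716%, 1.74%, 11.1% and 14% in KO against WT at 0, 3, 6 and 48 h. For the interaction they called 3.09%, 6.92% and 3.46%. The 4 members at 6 h are near the share of all genes. DESeq2 gave 7 for KO against WT at 48 h. Without the 3 libraries that stood apart, KO against WT gave 34 at 0 h, 6 at 3 h, 4 at 6 h and 15 at 48 h, and the interaction 31, 28 and 26. All genes called at 0 h then rose from 15.3% to 47.3%. At 3, 6 and 48 h they were 9.36%, 12.3% and 24.1%, and for the interaction 38.5%, 40.5% and 38.9%. The 4 of 40 members at 6 h are near that share. The causes were not tested.

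Leaving out 1 library at a time gave 7 to 25 members called in KO against WT at 0 h, 0 to 1 at 3 h, 0 to 0 at 6 h and 2 to 4 at 48 h. For the interaction it gave 7 to 24 at 3 h, 3 to 21 at 6 h and 3 to 21 at 48 h, in each case highest without WT 0 h library 1. Against 0 h, WT gave 27 to 32 members at 3 h (33 with all libraries), 29 to 33 at 6 h (29) and 17 to 21 at 48 h (20), and KO 31 to 33 (33), 33 to 34 (34) and 22 to 24 (24). Of the calls against 0 h, 22 of 33, 28 of 29 and 9 of 20 in WT and 29 of 33, 32 of 34 and 21 of 24 in KO kept significance in every setting. Of the 14 calls at 0 h between genotypes 0 did, of the 1 at 3 h and the 1 at 6 h 0 did, and of the 4 at 48 h 2 did (MCM5 and KIF20A). Of the interaction calls 0 of 10 did at 3 h, 2 of 10 at 6 h (RRM1 and E2F2) and 0 of 7 at 48 h. Of 319 values not called with all libraries, 155 were called in at least 1 setting, among them 140 of 319 without the 3 libraries that stood apart and 63 of 157 without WT 0 h library 1; CDC25A and TOP2A at 48 h in WT and TOP2A in the interaction at 3 h then had the opposite sign to their uncalled values.

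Replicate numbers did not pair the libraries: the correlation of deviations for the same number was -0.186 to 0.219 (median 0.0008), against -0.246 to 0.287 for other numbers, and 4 of 24 libraries correlated best with their own number. With the replicate block KO against WT had 15 members called at 0 h, 0 at 3 h, 1 at 6 h and 3 at 48 h, and the interaction gave 11, 9 and 7. The lowest member value rested on 126 reads, and the effect of depth was not tested. In the simulated data 88.1% of 1.5-fold changes were recovered, and smaller ones were not simulated. Those data held no library that stood apart and used an assumed spread set alike for every gene. Only a small set of genes was changed, in KO at 48 h, and all groups otherwise had the same means. They therefore do not give the recovery or the share of false calls in the real libraries.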
